A study of Mus musculus with 6 samples.

Results

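The regions described here are 458 promoter tiles at which chromatin immunoprecipitation of Ezh2 gave a strong signal on all 6 arrays of the series. A tile is a stretch of promoter DNA that the array covers with neighbouring probes, and its level is the mean of its probes' log2 ratios of immunoprecipitated over input DNA after each array had been centred on its probe median. A tile was taken when its level was 1.5 or more on every array, which 458 of 18545 tiles with at least 5 probes met (2.47%). The members were thus selected on these levels, on all 6 arrays, and the levels are given as a description. The centring, the threshold and the naming are the rule's, and a member took the name of every gene whose transcription start the authors' peak lists placed inside it. A gene had a name only where the authors had listed a peak near it on some array, so 457 members were named and 1 was not. The named members held 481 genes of 9615 genes named in all (5.00%), and 25 of them held the starts of 2 or more genes.

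The study mapped Ezh2 in mouse embryonic stem (ES) cells to ask how Brca1, the DNA repair gene of hereditary breast cancer, bears on where Ezh2 binds. The AB2.2 line is wild type for Brca1 (2 arrays) and the PL2F8 line is Brca1 deficient (2 arrays), both of strain 129/SvEvBrd-Hprtb-m2. The R1 line was transfected with control siRNA (1 array) or with siRNA against Brca1 (1 array) and harvested 48 hours later. All cells were grown with the cytokine LIF on gelatin-coated dishes without any feeder layer named in the labels, and all 6 arrays carried Ezh2 immunoprecipitate labelled with Cy5 against input DNA labelled with Cy3, with no dye swap. PL2F8 is a cell line of its own, so anything else that sets it apart from AB2.2 cannot be told apart from the lack of Brca1. Nothing in the labels says that the duplicate arrays came from separate cultures, so p-values reflect how far arrays of a line differ, and that may be a technical spread. The arrays measure binding to DNA and cannot show how much Brca1 was left in any sample or how far the cells were ES cells by expression.

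Ezh2 is the methyltransferase of Polycomb repressive complex PRC2, which methylates histone H3 at genes that are kept off. In ES cells the complex lies over CpG-rich promoters of genes that later direct the formation of tissues, above all those of transcription factors, and these genes stay silent while the cells remain pluripotent. Another complex, PRC1, holds Cbx proteins that bind the methylated histone.

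The promoter sequences below show what kind of DNA lay under the strongest and the most unlike members. They come from RefSeq, assembly GRCm38.p6, run from 250 bases before to 50 bases after the annotated start, and are written 5′ to 3′ on the gene's strand with every CpG in capitals. The member with the highest mean over the 6 arrays was Prdm12 (chr2:31639787-31640086, plus strand), the next was Pcdh7 (chr5:57717831-57718130, plus strand), and the highest member that belonged to none of the gene lists was Skor1 (chr9:63148912-63149211, minus strand), whose first listed promoter of 3 is shown. Nfia (chr4:97581693-97581992, plus strand) and Jph3 (chr8:121730309-121730608, plus strand) had the lowest and the highest ratio of observed to expected CpG among members with a single sequence in the table.
Prdm12: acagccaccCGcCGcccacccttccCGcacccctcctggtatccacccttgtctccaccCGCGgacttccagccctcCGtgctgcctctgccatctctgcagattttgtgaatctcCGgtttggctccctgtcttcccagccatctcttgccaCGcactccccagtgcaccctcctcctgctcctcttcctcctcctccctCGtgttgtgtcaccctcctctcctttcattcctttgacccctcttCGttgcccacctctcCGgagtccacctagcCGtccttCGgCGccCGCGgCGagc
Pcdh7: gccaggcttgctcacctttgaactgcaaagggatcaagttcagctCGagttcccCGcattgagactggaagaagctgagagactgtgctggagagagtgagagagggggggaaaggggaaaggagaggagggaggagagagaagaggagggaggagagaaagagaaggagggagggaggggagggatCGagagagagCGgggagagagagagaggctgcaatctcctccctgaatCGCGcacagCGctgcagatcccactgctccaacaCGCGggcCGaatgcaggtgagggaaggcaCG
Skor1: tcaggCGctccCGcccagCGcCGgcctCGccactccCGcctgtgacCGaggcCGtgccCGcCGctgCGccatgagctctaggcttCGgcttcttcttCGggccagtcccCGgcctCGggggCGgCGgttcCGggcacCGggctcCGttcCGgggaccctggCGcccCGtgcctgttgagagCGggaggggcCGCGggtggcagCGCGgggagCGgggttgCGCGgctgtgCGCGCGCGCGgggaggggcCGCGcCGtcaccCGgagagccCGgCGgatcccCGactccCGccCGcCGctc
Nfia: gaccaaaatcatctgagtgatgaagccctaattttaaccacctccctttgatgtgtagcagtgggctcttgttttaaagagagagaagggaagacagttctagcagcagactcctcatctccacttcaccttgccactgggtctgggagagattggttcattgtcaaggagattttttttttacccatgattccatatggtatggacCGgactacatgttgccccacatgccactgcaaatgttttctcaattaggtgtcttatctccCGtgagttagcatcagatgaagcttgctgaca
Jph3: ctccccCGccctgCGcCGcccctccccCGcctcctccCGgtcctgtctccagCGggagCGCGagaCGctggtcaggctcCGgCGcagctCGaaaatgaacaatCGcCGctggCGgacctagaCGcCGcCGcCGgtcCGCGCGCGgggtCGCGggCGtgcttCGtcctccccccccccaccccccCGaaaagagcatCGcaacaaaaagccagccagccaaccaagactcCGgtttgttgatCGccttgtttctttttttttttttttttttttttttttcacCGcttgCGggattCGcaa

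Across all 32851 promoters of the table the median was 7 CpG in 300 bases, 52.7% G+C and an observed over expected CpG ratio of 0.38. Skor1 held 46 CpG (79.3% G+C, ratio 0.97) and Jph3 held 34 (63.0% G+C, ratio 1.20), both far above those medians. Prdm12 held 17 CpG at a ratio of 0.72. Pcdh7 held 11 at a ratio of 0.49. Jph3 and Nfia were picked for their CpG ratios, so the 5 promoters cannot show how Ezh2 signal relates to CpG density. Nfia held only 2 CpG at a ratio of 0.13. The GC box, GGGCGG, was found on either strand in Prdm12, Skor1 and Jph3 and occurs in 35.7% of all promoters of the table, and CCAAT was found in Nfia alone of these and occurs in 37.4%. The TATA box, searched as TATAAA, was found in none of the 5 (13.6% of all promoters). Nor did any hold the E-box CACGTG (7.15%), the NRF1-like motif GCGCATG (3.91%) or the Ets-like motif CCGGAAG (8.86%), each searched on both strands. Only 335 of the 481 member genes (69.6%) had a promoter in the table, below the 80% that a comparison over the whole set would need, so CpG content and motifs were not compared between members and other genes.

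The probes lying between 250 bp upstream and 50 bp downstream of the start listed in the files did not always carry the signal that made a tile a member. At Prdm12 the 3 probes there averaged 3.76 and 3.31 in AB2.2, 4.27 and 4.30 in PL2F8, 4.82 with control siRNA and 4.25 with Brca1 siRNA, close to the level of the whole tile. At Skor1 the 3 probes there ranged over the arrays from 3.16 to 3.92. At Jph3, which encodes a junctophilin of excitable cells, the 3 probes near the start stayed between 0.81 and 1.09 on the 6 arrays, while the tile as a whole lay between 1.75 and 2.03. The strong signal of the Jph3 tile thus lay outside that window. The start annotated by RefSeq may differ from the start listed in the files, whose genome build the sources used here do not name.

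The median member read 2.12 and 1.93 on AB2.2 arrays 1 and 2, 2.42 and 2.34 on PL2F8 arrays 1 and 2, 2.43 with control siRNA and 2.37 with Brca1 siRNA in R1, which is 3.82-fold to 5.37-fold over input. The other 8609 tiles that hold a listed start had medians between 0.19 and 0.41. The highest member of each array lay between 3.50 and 4.51. AB2.2 array 2 stood apart: 351 of the 458 members had their lowest level there, array 1 of the same line was higher at 436 members with a median difference of 0.18, and 3 members had their highest level there. PL2F8 array 1 was higher than array 2 at 457 members (99.8%, 61.3% of all tiles), by a median of 0.12 (0.016 over all tiles). Leaving out AB2.2 array 2 would raise the number of members from 458 to 544.

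**Figure D1:**
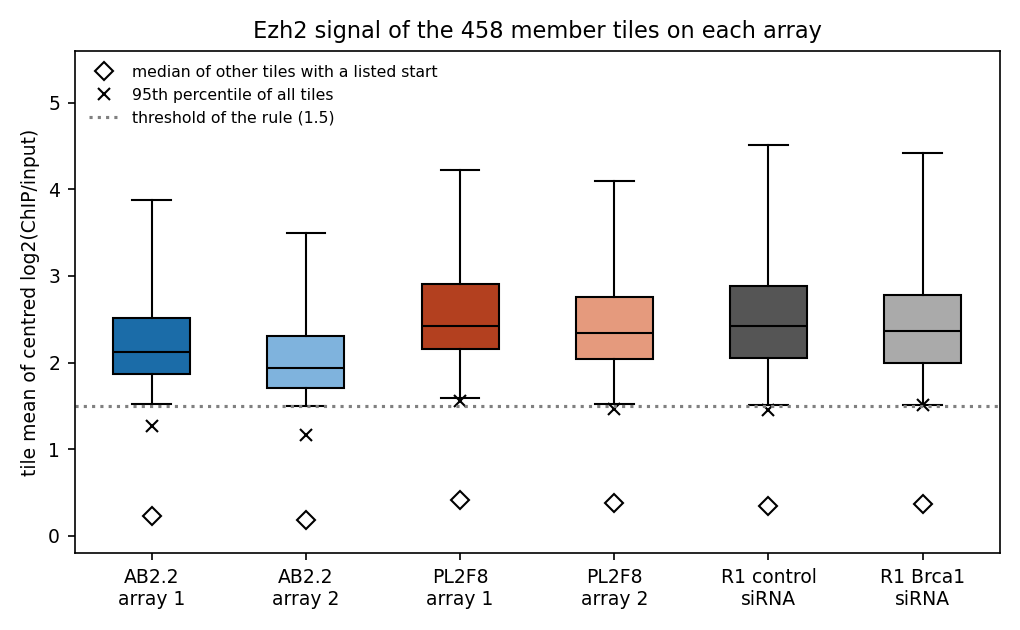
Tile means of centred log2(ChIP/input) of the 458 members on each of the 6 arrays. Boxes show quartiles and medians and whiskers reach the lowest and highest member; diamonds are medians of the other tiles with a listed start and crosses the 95th percentile of all tiles. The AB2.2 boxes sit lowest (medians 2.12 and 1.93), and the dotted line at 1.5 is the rule's own floor.

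The threshold cut through a continuous range. Of all tiles, 757 reached 1.5 on 1 to 5 arrays, 109 of them on 5. Just inside lay Ccno, Gjb2, Cnr1 and Cdkn1c whose lowest levels ran from 1.501 to 1.505, and just outside lay Fzd4, an additional tile of Sox6, Fbn2 and Dock3, whose lowest levels ran from 1.496 to 1.4995. Gjb2, a connexin gene, read 1.66 and 1.5 in AB2.2 but 2.39 and 2.34 in PL2F8 and 2.43 and 2.23 in R1. Cdkn1c, an imprinted cell cycle inhibitor, had the lowest mean of all members and was limited by R1, with 1.76 and 1.56, then 1.59 and 1.54, then 1.5 and 1.58. Fzd4, a Wnt receptor gene, missed on AB2.2 array 2 alone and read 1.65 to 1.73 on the other arrays. Membership near the threshold thus turned on differences smaller than those between duplicate arrays.

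The strongest member was Prdm12, a zinc finger gene needed for pain-sensing neurons, whose tile lies at chr2:31492356-31496356 in the files' coordinates. It read 3.88 and 3.42 in AB2.2, 4.19 and 4.08 in PL2F8, 4.51 with control siRNA and 4.41 with Brca1 siRNA, so that the R1 arrays were highest and the AB2.2 arrays lowest. Pcdh7, which encodes a protocadherin of the cell surface, read 3.57 and 3.08 in AB2.2, 4.23 and 4.09 in PL2F8, and 4.03 and 4.05 in R1. Here both PL2F8 arrays were above both R1 arrays, and AB2.2 lay below both lines. Sim2, a basic helix-loop-helix (bHLH) factor whose promoter is not in the table, read 3.61 and 3.39, then 3.90 and 3.79, then 3.85 and 4.01 in the same order of arrays. Hoxd11, a patterning gene of limb and trunk (tile chr2:74517249-74521249 in the files), read 3.62 and 3.31, then 3.99 and 3.86, then 3.94 and 3.68. Hmx2, a homeobox gene of the inner ear, read 3.46 and 3.29, then 3.74 and 3.60, then 4.13 and 3.83. In each of these 5 tiles both PL2F8 arrays and both R1 arrays were above both AB2.2 arrays.

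The next places were held by Kcnk9, a background potassium channel gene (mean 3.49), Olig2, a factor of motor neurons and oligodendrocytes (3.46), the tile shared by Six3os1 and the forebrain and eye gene Six3 (3.46), Sox6 (3.44), the head organizer and kidney gene Lhx1 (3.43), the homeobox gene Barx2 (3.43) and the blood stem cell repressor Gfi1 (3.41). Of these 12 highest members, 10 encode or adjoin genes for transcription factors, and the exceptions are Pcdh7 and Kcnk9. Sox6 differed from the rest in that its AB2.2 arrays (3.43 and 3.21) reached the range of its PL2F8 arrays (3.47 and 3.38).

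**Figure D2:**
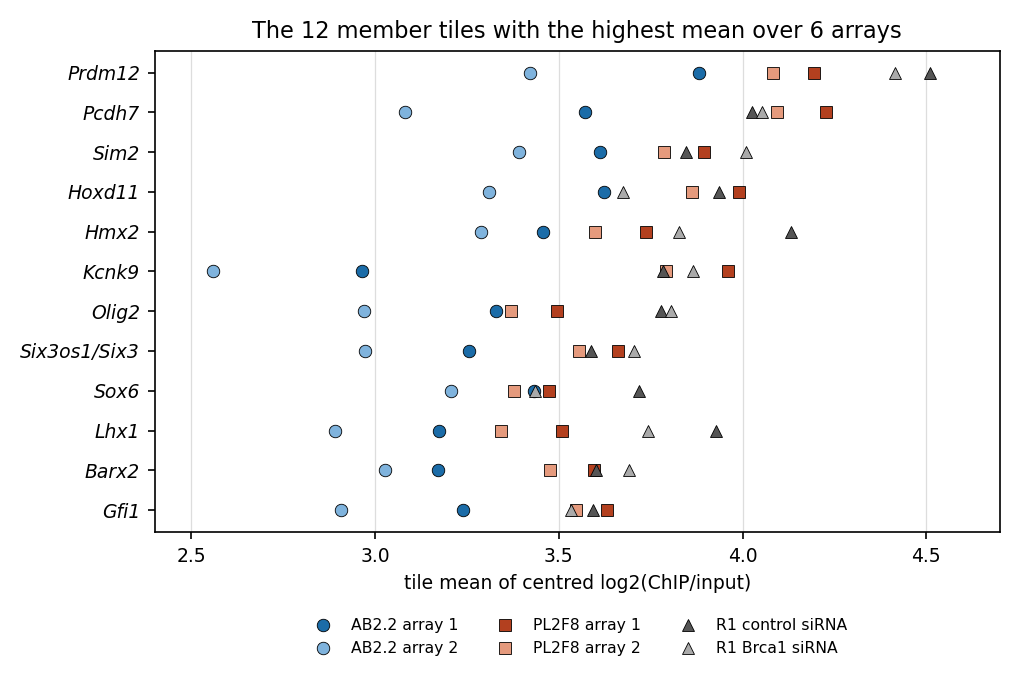
Levels of the 12 members with the highest mean over the 6 arrays, as tile means of centred log2(ChIP/input); each symbol is 1 array. AB2.2 array 2 is the lowest symbol in all 12 rows, and Prdm12 reaches 4.51 on the R1 control array.

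By the gene lists, genes for transcription factors of development made up a far larger share of the members than of all named genes. The 7 lists of such factors held 374 named genes, and 194 of them (51.9%) lay in member tiles. They made up 40.3% of the member genes against 3.89% of all named genes. Genes of 4 lists of signalling molecules made up 4.57% of the member genes against 1.27% of all named genes. In none of the 27 lists were 213 member genes (44.3%), against 85.2% of all named genes. The tiles of the factor lists had a median level of 2.44, those in no list 2.09 and all members 2.27. Because the levels chose the members, and the lists were chosen with earlier results of these data known, these shares and medians describe them and were not tested.

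**Figure D3:**
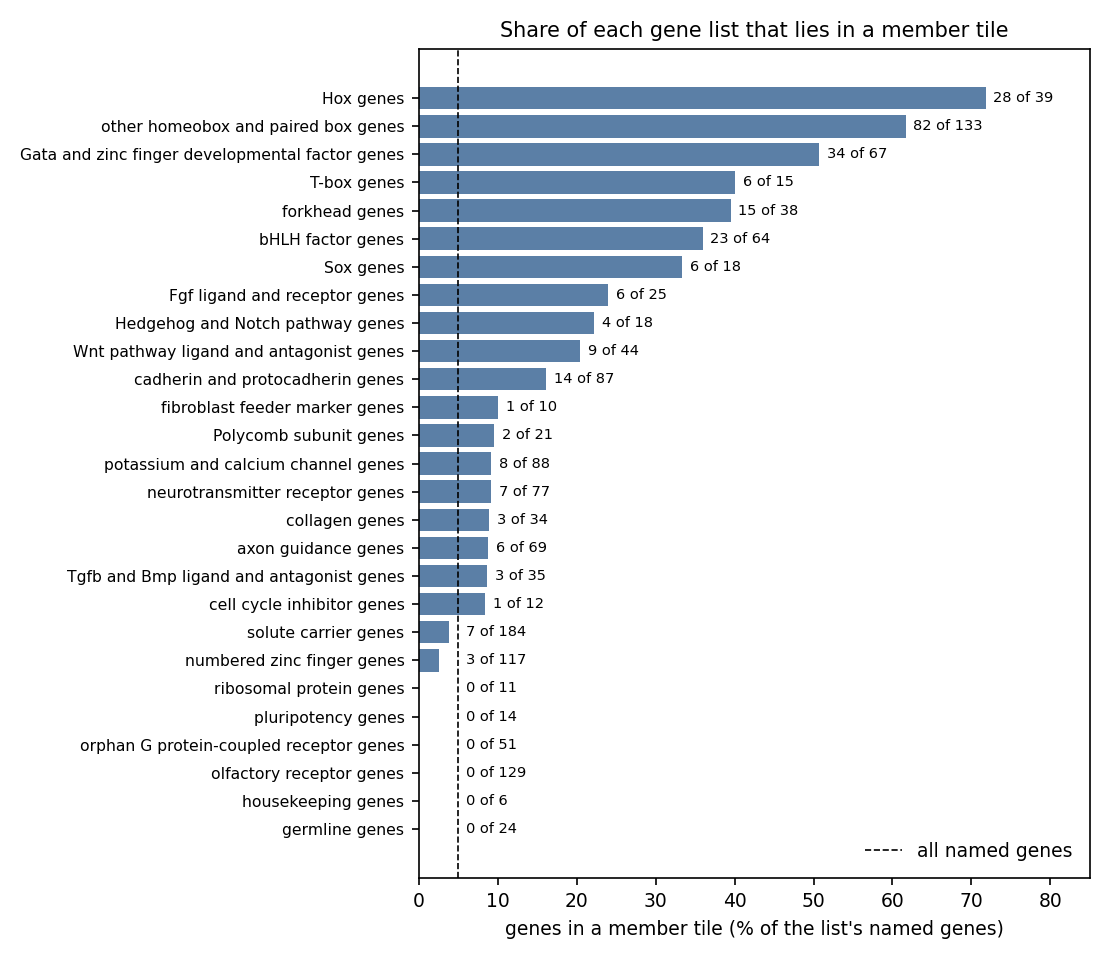
Share of the named genes of each of the 27 lists that lay in a member tile, in percent, with the counts beside the bars. The dashed line is the 5.00% of all named genes; the Hox list reaches 71.8% (28 of 39), and 6 lists have no member.

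Hox genes, which set position along the body axis, had the largest share: 28 of 39 named Hox genes (71.8%) lay in 27 member tiles with a median level of 2.38. Hoxd11 was highest, with a mean of 3.73. Hoxc9 followed with 2.81 and 2.57 in AB2.2, 3.08 and 2.93 in PL2F8, and 3.33 and 3.26 in R1. Hoxb5 read 2.66 and 2.36, then 3.12 and 3.00, then 3.33 and 3.07. At both genes all R1 arrays were above PL2F8 array 2, and AB2.2 was lowest. Hoxb6 was among the 3 members with the widest range over the arrays, with 2.34 and 2.16 in AB2.2, 2.70 and 2.59 in PL2F8 and 3.58 on both R1 arrays, so the lines did not overlap there. Hoxd8, at the other end, was almost flat between 1.57 and 1.70. The 11 Hox genes outside ran from Hoxb2, which reached 2.39 on the R1 control array but 1.31 on AB2.2 array 2, down to Hoxd4 with a mean of 0.54.

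The Hox genes also supplied 4 groups of neighbouring members, where a group is a run of members less than 50000 bp apart. The HoxA group held 9 member tiles among 10 tiles in 150261 bp, from Hoxa2 to Evx1 on chromosome 6, with means between 2.08 and 2.90. The HoxB group held 7 of 8 tiles from Hoxb9 to Hoxb3 on chromosome 11 (1.85 to 2.92), and the HoxC group 6 of 7 tiles from Hoxc12 to Hoxc5 on chromosome 15 (1.99 to 3.00). In the HoxD group all 7 tiles from Evx2 to Hoxd8 on chromosome 2, over 47669 bp, were members. Levels were uneven within this run: Hoxd12 had a mean of 2.19, its neighbour Hoxd11 3.73, Hoxd10 2.80, Hoxd9 2.33 and Hoxd8 1.63. Beyond Hoxd8, Hoxd3 (1.74) and Hoxd4 (0.54) were not members.

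Other homeobox and paired box genes gave the largest number of members, 82 of 133 named genes (61.7%), with a median level of 2.49. Besides Hmx2, Six3 and Lhx1 they included the Pax genes of vertebrae, eye, kidney and muscle: Pax9 (mean 3.35), Pax1 (3.15), Pax6 (2.98), Pax2 (2.87) and Pax3 (2.83). Pax1 was among the 3 members with the widest range over the arrays, from 2.38 on AB2.2 array 2 to 3.73 on the R1 control array. The Nkx genes among them ran from Nkx2-3 (3.14) to Nkx2-5 (1.90), the heart factor. The lowest of the list were Six6, a gene of eye and pituitary (1.84), and Mkx, a tendon factor (1.82). Msx1, a factor of limb and tooth, was the most even member of all: it read 3.08 and 3.00, then 3.10 and 2.99, then 3.03 and 3.03.

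Among bHLH genes 23 of 64 (35.9%) were members, led by the midline and neural genes Sim2 (3.76), Olig2 (3.46) and Sim1 (3.18). Their lowest members were Hey2, a Notch target (1.87), and Npas1 (1.82). Forkhead genes gave 15 of 38 members (39.5%), led by Foxb2 (3.29), the gut and lung mesoderm gene Foxf1a (3.01) and the tile of Foxl2 and Foxl2os (2.89), with the ovary factor Foxl2 read as 2.82 and 2.65, then 3.33 and 3.13, then 2.72 and 2.71. In that tile PL2F8 was above both other lines. T-box genes gave 6 of 15 members (40.0%): Tbx1 (3.28), the mesoderm gene T (3.23), Tbx2 (3.03), Eomes (2.53), the heart gene Tbx20 (2.34) and the hindlimb gene Tbx4 (2.05). Tbx3 was kept out by AB2.2 and PL2F8, where it read 0.99 to 1.48, although R1 gave 2.64 and 2.54. Sox genes gave 6 of 18 (33.3%), among them Sox7 (2.88), Sox3 (2.49), the endoderm gene Sox17 (2.26) and the cartilage and gonad gene Sox9 (1.89).

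Gata and zinc finger factor genes gave 34 of 67 members (50.7%). Gata2, a blood factor, read 3.22 and 2.84, then 3.22 and 3.12, then 3.29 and 3.13, with AB2.2 array 2 the lowest and array 1 within the range of the other lines. Gata4, a heart and endoderm factor, read 2.85 and 2.47, then 3.40 and 3.28, then 3.44 and 3.31, with AB2.2 below both other lines. Gata6 had a mean of 2.90. Prdm6 followed Prdm12 and Gfi1 at 3.29, and the lowest were the T cell gene Bcl11b (1.86) and Zfpm2, which encodes a partner of Gata factors (1.80).

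Signalling genes were fewer. Wnt ligands and antagonists gave 9 of 44 members (20.5%), led by Wnt3 (2.97), Wnt11 (2.90) and Wnt6 (2.70), with the secreted antagonist Frzb at 2.13. Fgf genes gave 6 of 25 (24.0%), led by Fgf9 (2.79), Fgf12 (2.53) and Fgf8 (2.37). Hedgehog and Notch genes gave 4 of 18 (22.2%): the Notch ligands Dll4 (2.86) and Dll1 (1.90), the modifier Lfng (2.12) and the ligand Ihh (2.11). Of 35 Tgfb and Bmp genes 3 were members, the antagonist Fst (1.97) and the ligands Bmp2 (1.76) and Gdf6 (1.69). No tile of these 4 lists reached a mean of 3.

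Genes of the cell surface and of excitable cells were members as well. Cadherins and protocadherins gave 14 of 87 members (16.1%), from Pcdh7 (3.84) and Pcdh1 (2.97) to Cdh8 (1.74). Potassium and calcium channels gave 8 of 88 (9.09%), where Kcnk9 (3.49) stood well above the next, Kcnc2 (2.53). Neurotransmitter receptors gave 7 of 77 (9.09%), led by the glutamate receptor genes Grin2a (3.06) and Grm8 (2.43). Axon guidance genes gave 6 of 69 (8.70%), led by Nrp1 (2.66), and collagen genes 3 of 34 (8.82%), led by Col12a1 (2.72). Solute carriers gave 7 of 184 (3.80%) and numbered zinc finger genes 3 of 117 (2.56%), both below the 5.00% of all named genes.

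The Polycomb system itself gave members at 2 of 21 genes, among them the PRC1 gene Cbx8. It read 3.00 and 2.78, then 3.10 and 2.96, then 3.29 and 3.15, so it was high on every array and the AB2.2 and PL2F8 arrays overlapped. Cbx2, another PRC1 gene, had a mean of 1.01, and the PRC2 genes Eed and Suz12 had means of 0.11 and 0.15. The inhibitor Cdkn1c was the member among 12 cell cycle inhibitor genes. None of 14 pluripotency genes was a member; Esrrb came closest with 1.49 and 1.19, then 1.99 and 1.96, then 2.30 and 2.55, while Nanog and Pou5f1 had means of 0.07 and -0.29. Germline (24 genes), ribosomal protein (11), housekeeping (6), olfactory receptor (129) and orphan G protein-coupled receptor genes (51) had no member either. Of 10 fibroblast feeder marker genes Pdgfra was a member (2.47); binding at a gene says nothing about whether feeder cells were present.

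Of the members in no list, the strongest was Skor1, a neuronal corepressor gene, with 2.92 and 2.65, then 3.67 and 3.50, then 3.21 and 3.46. Dmrta2, a gene of the dorsal forebrain, had a mean of 3.05. The phosphodiesterase gene Pde10a reached 2.98 and the tile of the thyroid genes Duox2 and Duoxa2 2.97. The neurotrophic factor gene Gdnf (2.69) was a member together with the receptor genes Gfra1 (2.70) and Gfra2 (2.71). Antisense or opposite-strand transcripts of another member gene accounted for 10 member genes, such as Six3os1, Pax6os1, Emx2os and Igf2as; the arrays measure DNA without strand, so such a pair shares its signal where both starts lie in 1 tile. Igf2, the imprinted growth factor, and Igf2as read 2.13 and 1.94, then 2.60 and 2.49, then 2.61 and 2.45.

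The signal filled much of a member tile. A tile mean of 1.5 or more on every array favours tiles with many high probes, so these shares only describe the members. In the median member 65.8% of probes were at 1.5 or more, averaged over the arrays, against 9.40% in other tiles with a listed start, and 37 members had 90% or more. By array this median ran from 57.5% on AB2.2 array 2 to 71.8% on the R1 control array. Prdm12 (99.6%), Pcdh7 (99.1%), Hoxd11 (97.9%) and Olig2 (97.5%) were nearly filled. Rn4.5s reached 100%, but on 5 probes of which 80% match several places in the genome. Narrower signal marked Cdh8, where 40.0% of probes reached 1.5 although the highest probe averaged 5.36, and Unc5c, a netrin receptor gene, with 42.1% and a highest probe of 5.04.

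Around the listed transcription start, the mean signal of members with 1 listed start was 1.27 in the bin farthest upstream, which ended at -3000 bp, and 2.82 in that from -750 to -500 bp, then 2.73 in the last 250 bp before the start, and was highest, at 3.31, from 250 to 500 bp downstream. AB2.2 array 2 went from 2.49 in the bin at -750 bp to 2.30 just before the start and 2.88 downstream, and the R1 control array from 2.95 to 2.70 and 3.28. On PL2F8 array 1 these values were 3.01, 3.11 and 3.68, so the dip before the start that AB2.2 and R1 showed was absent there. Other tiles with a listed start averaged 0.00 in the farthest bin and reached 1.24 from 250 to 500 bp downstream. Members were also higher at the far upstream edge. The rule averaged probes over the whole tile, so this follows in part from the selection. Among 417 members with 1 listed start, the highest bin lay downstream of the start in 228 (54.7%) and 1000 bp or more upstream in 94. In 180 of them the probes more than 2000 bp upstream still averaged 1.5 or more.

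**Figure D4:**
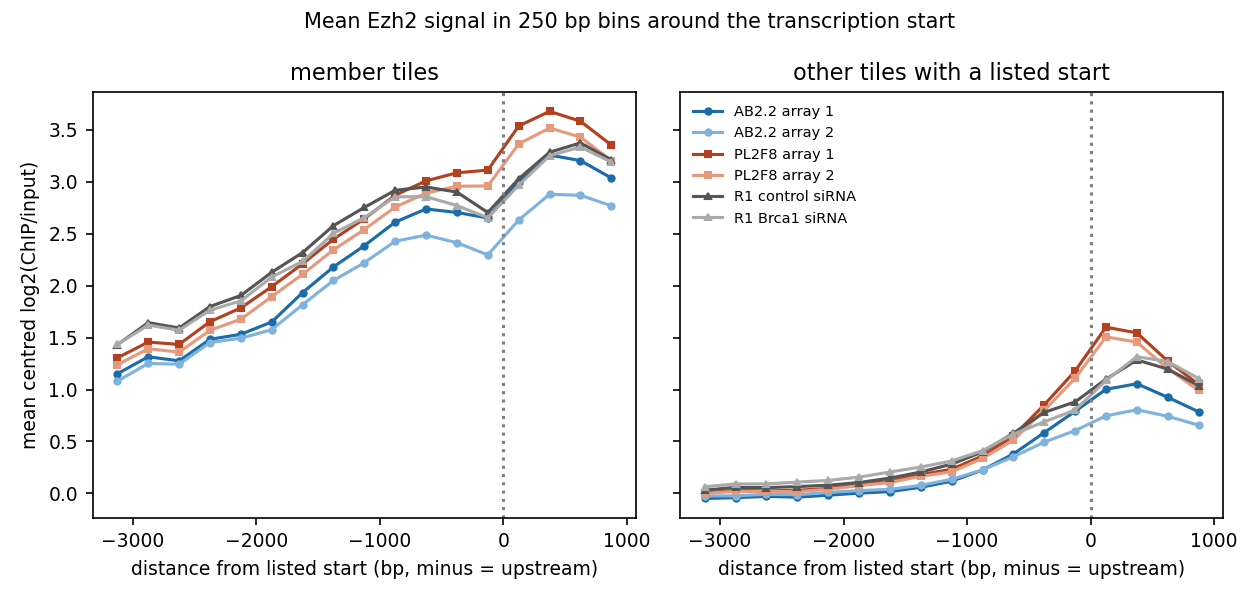
Mean centred log2(ChIP/input) in 250 bp bins of distance from the listed start on each array, for member tiles (left) and other tiles with a listed start (right), each with 1 listed start. Members peak at 250 to 500 bp downstream on all but the R1 arrays, where the next bin is highest, and stay above 1.0 at the upstream edge.

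In the authors' peak lists, 457 of the 458 members held a listed peak on each of the 6 arrays. Of these, 406 held one with a false discovery rate of 0.05 or less on each. The peaks were listed from the same arrays whose levels chose the members, so the overlap is no separate support. The share over all tiles is not given here. The listed peaks of the median member covered between 568 and 635 bp of its tile by array, where 418 members are tiles of exactly 4000 bp, usually from 3200 bp upstream to 800 bp downstream of the start. The member without any listed peak was the unnamed one, on chromosome 14, with 6 probes of which 83.3% match several places in the genome; its levels ran from 1.82 to 2.28. In all, 4 members had most of their probes at several genome places: that tile, Rn4.5s, Cntfr and the tile of the predicted genes Gm13275 and Gm13278. A signal there cannot be assigned to 1 place.

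Apart from the Hox groups, 13 further groups of neighbouring members brought the number of members within 50000 bp of another to 56 (12.2%). They included Foxf1a with Foxc2 and Foxl1, Hmx3 with Hmx2, Wnt9b with Wnt3, and Dlx1 with its antisense gene Dlx1as. Hmx2 had a mean of 3.67 and Hmx3 of 2.39, so neighbours could differ widely. Among the autosomes and the X chromosome, members made up between 0.789% of the tiles of the X chromosome (6 of 760) and 4.56% of those of chromosome 18 (21 of 461), with 3.24% on chromosome 2, which had the most (52). No member lay among the 14 tiles of the Y chromosome or on unplaced sequence.

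Between the lines, most members carried more Ezh2 signal in Brca1-deficient PL2F8 than in wild-type AB2.2 cells, by a modest amount. In limma's moderated test over all tiles, with Benjamini-Hochberg adjustment and a threshold of 0.05, 330 of the 458 members were higher in PL2F8 (72.1%; 48.4% of all tiles tested), 19 were lower (4.15%; 20.3% of all tiles) and 109 were not called. The rule had used the levels of both lines, so nothing is read from these counts beyond their size. The median difference over members was 0.34, a 1.26-fold ratio, against 0.11 over all tiles. Differences of 0.5 or more were called higher at 132 members (28.8%; 9.25% of all tiles) and lower at 2 (0.437%; 0.766% of all tiles). After quantile normalization, which moved the median of all tiles by -0.12, 234 members were higher (51.1%; 32.7% of all tiles) and 93 lower (20.3%; 36.2% of all tiles), and the median came to 0.12, so the split between directions depended on how the arrays were scaled.

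The median difference over members moved with the arrays used. AB2.2 array 2 was the lowest array at most members, and without it the median went from 0.34 to 0.26. The array identifiers fall into 2 number ranges. PL2F8 array 1 is the array of that line that lies outside the range of both AB2.2 arrays, and without it the median came to 0.29. The sources used here do not say what the ranges stand for, and their part in the difference was not tested. By mean level over the 6 arrays, 146 of 188 tiles at 2 to 2.5 were higher in PL2F8 (77.7%), but 180 of these 188 were members. At 1.5 to 2, 314 of 418 tiles were higher (75.1%), among them 81 of 127 members (63.8%). At 1 to 1.5, where by the rule no tile is a member, 689 of 961 were higher (71.7%). In the profile around the start the difference in members grew from 0.16 at the upstream edge to 0.63 in the first 250 bp downstream. Other tiles with a listed start went from 0.04 to 0.68 between the same bins, so this growth was not particular to members.

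**Figure D5:**
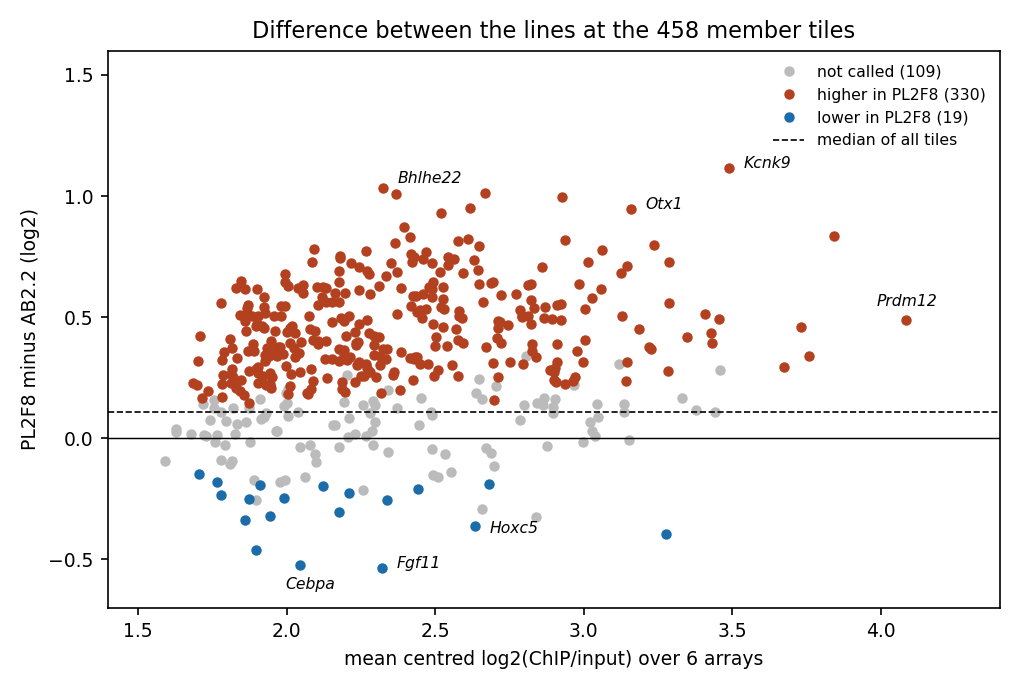
PL2F8 minus AB2.2 (log2) at each of the 458 members against the mean level over 6 arrays, coloured by limma's call. Most points lie above 0 and above the median of all tiles (0.11, dashed); Kcnk9 is highest at 1.11 and Fgf11 lowest at -0.54.

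The largest rise was at Kcnk9, which read 2.97 and 2.56 in AB2.2 and 3.96 and 3.79 in PL2F8, a difference of 1.11 ± 0.12 (SE, n = 2 arrays a line, 2.16-fold, limma adjusted p = 0.000242); its R1 arrays, at 3.78 and 3.87, were as high as PL2F8. Bhlhe22, a bHLH gene of cortical neurons, rose from 1.77 and 1.86 to 2.92 and 2.78, by 1.03 ± 0.06 (adjusted p = 4.42e-05). Its R1 arrays lay between the lines. Tlx3, a selector gene of sensory neurons, rose from 2.21 and 1.89 to 3.15 and 2.97, by 1.01 ± 0.10. Flt1, a receptor for the vascular growth factor VEGF, rose from 1.88 and 1.65 to 2.83 and 2.71, again by 1.01 (SE 0.08). At these 4 genes the gap between the lines was more than 2 times the gap between duplicate arrays.

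Sp5, a target of Wnt signalling, rose by 0.99 ± 0.08, and the tile of the kidney and gonad gene Wt1 and its antisense gene AI314831 by 0.95 ± 0.07. Otx1, a forebrain gene, rose from 2.75 and 2.44 to 3.59 and 3.50, by 0.95 ± 0.09. Lef1, the DNA-binding partner of beta-catenin, rose from 2.17 and 2.10 to 3.14 and 2.99, by 0.93 ± 0.06, while R1 read 2.35 on both arrays. Hmx3 rose by 0.87 ± 0.08 and Pcdh7 by 0.83 ± 0.14. All 10 kept their call under quantile normalization.

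Of the 19 members that fell in PL2F8, Fgf11, an Fgf homologue that stays inside the cell, changed most: it went from 2.73 and 2.43 to 2.05 and 2.04, a difference of -0.54 ± 0.09 (limma adjusted p = 0.00137). Cebpa, a factor of fat and myeloid cells, went from 2.63 and 2.34 to 2.02 and 1.89 (-0.52 ± 0.09). Dll1, the Notch ligand, went from 2.23 and 2.07 to 1.71 and 1.66 (-0.46 ± 0.06). In these 3 tiles both PL2F8 arrays lay below both AB2.2 arrays. Hoxc5 fell by 0.36, Bcl11b by 0.34, the neurofilament gene Nefl by 0.32, Foxq1 by 0.30, Tbx20 by 0.26 and the lipid synthesis gene Agpat9 by 0.25. At Dll1 and Tbx20 the direction turned when the median of the probes replaced their mean, with differences of 0.06 and 0.295, so those falls depend on how the probes of a tile are averaged. Cebpa, Hoxc5, Bcl11b, Foxq1 and Agpat9 stayed lower but lost their call with the median of probes, and Bcl11b and Agpat9 lost it without PL2F8 array 2 as well.

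The gene lists are to be read against the 48.4% of all tiles and 72.1% of members higher and the 20.3% and 4.15% lower with median scaling, and against 32.7% of all tiles higher and 36.2% lower after quantile normalization. By gene list, 19 of the 27 Hox tiles were higher in PL2F8 and 2 lower with median scaling, and 12 higher and 5 lower after quantile normalization. With median scaling the HoxB group had all of its 7 tiles higher (median difference 0.39), whereas the HoxC group had 2 higher and 2 lower (median 0.05). After quantile normalization Hoxb5 stayed higher, but Hoxb4 and Hoxb6 were not called. Of the 83 tiles of other homeobox and paired box genes 65 were higher and 3 lower with median scaling, and 48 and 13 after quantile normalization. The Gata and zinc finger list had 25 of 34 tiles higher and 1 lower (19 and 6 after quantile normalization), and the bHLH list 15 of 23 higher and 1 lower (10 and 3). Forkhead tiles were higher in 11 of 15 and lower in 1 (8 and 3), and all 7 neurotransmitter receptor tiles were higher with median scaling, 5 of them after quantile normalization. Cbx8 was not called with median scaling and was lower after quantile normalization. The members outside every list gave 132 higher and 8 lower of 191 tiles (92 and 46), with a median of 0.33 against 0.36 in the factor lists.

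The difference between lines repeated across the array pairs: over the 458 members, PL2F8 minus AB2.2 of the arrays numbered 1 correlated with that of the arrays numbered 2 at r = 0.89 (0.94 over all tiles), where every tile shares the same 4 arrays. At 351 members both PL2F8 arrays were above both AB2.2 arrays, and at 24 both were below. No share over all tiles is given beside these counts. The rule used these levels and the duplicates may be technical, so nothing is read from the counts.

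In R1 cells, where Brca1 was targeted by siRNA, member levels with and without it were close, and with 1 array each no difference can be set against a spread between arrays. The median of Brca1 siRNA minus control was -0.06 over members and -0.03 over all tiles. No member was higher by 0.5 or more (1.11% of all tiles were), and 1 was lower (0.906% of all tiles), the gonad and muscle gene Dmrt2, which read 2.68 with control and 1.98 with Brca1 siRNA. The highest difference was at Sox17, with 2.39 and 2.89. Osbpl6 (1.59 and 1.98), the hindbrain gene Gbx2 (2.25 and 2.64), Msx3 (2.21 and 2.58) and the blood gene Tal1 (3.01 and 3.38) followed. Lower values with Brca1 siRNA were read at Col12a1 (3.15 and 2.65), Meis1 (2.45 and 2.01), Tmeff2 (2.58 and 2.15) and the tile of Duox2 and Duoxa2 (3.36 and 2.93). Over the members, PL2F8 minus AB2.2 and Brca1 siRNA minus control correlated at r = 0.09 (458 tiles, no array shared; 0.16 over all tiles).

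The 10 members with the largest rises and the 10 with the largest falls in PL2F8 had R1 differences between -0.33 and 0.30. Otx1 read 3.48 with control and 3.18 with Brca1 siRNA, whereas Sp5 read 3.00 and 3.31. Kcnk9 read 3.78 with control and 3.87 with Brca1 siRNA, Lef1 2.35 and 2.35, and Bhlhe22 2.39 and 2.22. Fgf11 read 2.26 and 2.41, and Cebpa 1.76 and 1.64. The R1 array with control siRNA also stood above AB2.2: it exceeded the AB2.2 mean by a median of 0.37 over members and 0.05 over all tiles.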

How the data were processed

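Ezh2 immunoprecipitate and input DNA of mouse ES cells were amplified and hybridised to NimbleGen promoter arrays, per the labels' protocols. The deposited table holds 1 log2 ratio of ChIP over input per probe and array for 714900 probes, normalized by the authors; the method, software and genome build are not stated there or in the labels. Its array medians lay between 0.02 and 0.04, so centring near 0 preceded deposit, and scale and direction follow the peak files, whose headers call a peak's score a log2 ratio. The authors' deposited peak lists, 1 per array, give each peak a false discovery rate (FDR) as a fraction, of the kind of a q-value, and the nearest start; no header names the peak caller. Coordinates are the files' own.

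Each array was centred on its median without loess or quantile steps, and probes were averaged per tile (18545 of 18614 tiles had at least 5). PL2F8 was set against AB2.2 in a limma fit (version 3.58.1, R 4.3.3; lmFit, then eBayes, two-sided, Benjamini-Hochberg over all tiles, threshold 0.05) without a replicate block. The fitting script was tested on simulated data. The R1 difference, with 1 array a condition, has no test of its own and enters only the comparison of differences in the closing section. Array number limits the precision. Gene symbols are those of the peak lists; 480 of 481 member genes matched RefSeq, and 18 carry a newer symbol there, among them Foxf1 for Foxf1a, Gpat3 for Agpat9 and Wt1os for AI314831. The remaining work ran in Python 3.11.15 with numpy 2.4.6, pandas 2.3.3 and matplotlib 3.10.9.

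The members and gene lists were chosen with earlier results of these data known. Genes are named by rule: the 12 highest means, the 4 tiles on either side of the threshold, the 10 largest rises and falls in PL2F8, the 5 highest and lowest R1 differences, the 3 widest and narrowest ranges, and the 3 highest and 2 lowest members of each list; a few genes named by it are not reported here, and other named genes were picked after their values were seen. The alternatives were other thresholds, scalings and averages, a trend in eBayes, the replicate block and leaving out each array.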

Additional observations from a re-analysis of the deposited data

Results flagged for a closer look

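The difference between the Brca1-deficient and the wild-type line was set against the difference between the R1 arrays with Brca1 and control siRNA, in a limma fit over all 6 arrays that was added after the data had been seen; each R1 condition has 1 array, which is assumed to vary like the duplicates. PL2F8 minus AB2.2 was the larger at 251 members, where 36.2% of all tiles were called so, and the smaller at 12, where 11.3% of all tiles were (adjusted p under 0.05). The spread in this fit comes from the duplicates alone, which may be technical, the spread of the R1 arrays is unknown, and the members were chosen on levels of these same arrays, so nothing is read from these counts. The members with the most unlike differences, picked for that, were Otx1, with 0.95 between the lines and -0.30 in R1, Bhlhe22, with 1.03 and -0.18, Flt1, with 1.01 and -0.20, and at the other end Fgf11, with -0.54 and 0.15.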

How the results depend on the processing

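A somewhat lower threshold gave 696 members and one of 2 gave 191, with 110 genes of the 7 factor lists in place of 194; the highest running mean of 5 probes gave 3151. Leaving out 1 array gave 458 to 544 members. Over all tiles, 8971 were higher in PL2F8 and 3757 lower; the median of probes gave 5344 higher, quantile normalization 6705 lower, and a difference of at least 0.5 gave 1715 and 142. Without 1 array 6484 to 9559 tiles were higher and 2200 to 3997 lower. Of the 458 members, 330 were higher and 19 lower, and a difference of at least 0.5 gave 132 and 2. The running mean gave 133 and 67 members, against 7107 and 3093 of all 18545 tiles. The larger share called higher among members than among all tiles did not hold there. Quantile normalization gave 234 and 93 members, against 6061 and 6705 of all tiles. With a trend in eBayes 248 members were higher and 7 lower, against 9218 and 4094 of all tiles. With a replicate block 373 members were higher and 33 lower; deviations of same-numbered arrays correlated at 0.23 over all tiles and -0.000315 over members, and the labels do not pair the numbers. Without 1 array 233 to 395 members were higher and 8 to 47 lower, with 47 lower without AB2.2 array 2 and 8 without PL2F8 array 2. The median difference of members, 0.34, became 0.12 with quantile normalization, 0.505 with the median of probes and 0.1745 with the running mean, and 0.26 to 0.43 without 1 array. In R1, members higher by 0.5 or more numbered 1 with quantile normalization, 21 with the median of probes and 12 with the running mean, and members lower by as much 11 with equal median absolute deviations, 30 with the median of probes and 58 with the running mean. With the median of probes the difference turned at Dll1 (0.06) and Tbx20 (0.295). The cause was not tested. Without the 4 tiles of multiply placed probes, tried after seeing the data, 329 members were higher and 19 lower. The alternatives for CpG content were not run, since under 80% of member genes had a sequence. Signal and array number limit the R1 comparison, where no spread is known.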
